A study of Mus musculus with 4 samples.

Results

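Histone genes were followed through 26 of the 22690 probe sets of an Affymetrix MOE430A array, those annotated to a single gene with a histone symbol in current or older naming. They covered 19 genes: 7 probe sets for 5 linker histone genes, 7 for 6 replication-dependent core histone genes and 12 for 8 genes of the variant class. A further 22 probe sets were annotated to several genes at once, at least 1 of them a histone gene, and were kept apart. RNA came from CD4 cells of sanroque mice (san/san, 2 arrays) and of wild type mice (+/+, 2 arrays). Sanroque is a recessive variant that arose after ENU mutagenesis of C57BL/6 males and was found in a screen for antinuclear autoantibodies; the mutation lies in Rc3h1, whose product Roquin-1 binds mRNA. Age and sex of the mice behind each array are not in the labels, nor is it stated that the arrays of a genotype used different animals, so the p-values below rest on an array-to-array spread that may be technical only. The number 1 arrays of both genotypes were hybridised on 1 day and the number 2 arrays on another, which let each change be read within a day. The letters CBA stand in the scanner notes of wild type array 2 without explanation, and whether its strain differed was not tested.

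Nucleosomes wrap DNA around an octamer of the core histones H2A, H2B, H3 and H4, and linker histones of the H1 family bind where the DNA enters and leaves. Replication-dependent histone genes lie in clusters, are read mainly in S phase, and give mRNAs that end in a stem-loop in place of a poly(A) tail, so methods that prime on poly(A) see little of them. Variant histones such as H2A.Z, macroH2A and H3.3 are made throughout the cell cycle from polyadenylated mRNAs and are placed by dedicated chaperones. The deposited values are linear signals already brought to a common mean per array. Changes are differences of log2(signal + 6), sanroque minus wild type, tested with limma over the 13579 probe sets whose mean signal lay at or above 21.3, with Benjamini-Hochberg adjustment at 0.05. Of the 26 histone probe sets 15 passed that filter, 3 of the linker, 5 of the core and 7 of the variant class.

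The promoters of 4 member genes are shown because they carry the comparisons that follow. H1f2 is the linker gene that fell, and H1f4 is another H1 gene on the same chromosome. H2ac19 is a core gene with a probe set that fell only with the hybridisation day as a block. Its other probe set did not pass with or without the block, nor did the core gene H2bc18. Each run reads 5′ to 3′ from 250 bases before to 50 bases after the transcript start in RefSeq, build GRCm38.p6. Capitals mark the H1 box AAACACA, the CCAAT box, the TATA box TATAAA and the octamer ATTTGCAT on either strand, none of which overlapped another here. The arrays did not measure these promoters, and a match is a description of the letters alone.
H1f2 promoter (GRCm38.p6, chr13:23738557-23738856, plus strand): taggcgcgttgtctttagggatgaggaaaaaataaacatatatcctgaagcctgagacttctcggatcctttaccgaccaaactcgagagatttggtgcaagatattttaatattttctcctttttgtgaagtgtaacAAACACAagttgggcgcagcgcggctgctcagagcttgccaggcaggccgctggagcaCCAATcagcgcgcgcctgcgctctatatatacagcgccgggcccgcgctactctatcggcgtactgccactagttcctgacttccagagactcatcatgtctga
H1f4 promoter (GRCm38.p6, chr13:23622509-23622808, minus strand): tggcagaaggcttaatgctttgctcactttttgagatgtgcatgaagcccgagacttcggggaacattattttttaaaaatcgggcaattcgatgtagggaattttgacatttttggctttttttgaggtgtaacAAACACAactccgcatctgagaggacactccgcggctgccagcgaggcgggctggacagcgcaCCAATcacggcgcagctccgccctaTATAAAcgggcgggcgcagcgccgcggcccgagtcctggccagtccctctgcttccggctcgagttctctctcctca
H2ac19 promoter (GRCm38.p6, chr3:96240325-96240624, minus strand): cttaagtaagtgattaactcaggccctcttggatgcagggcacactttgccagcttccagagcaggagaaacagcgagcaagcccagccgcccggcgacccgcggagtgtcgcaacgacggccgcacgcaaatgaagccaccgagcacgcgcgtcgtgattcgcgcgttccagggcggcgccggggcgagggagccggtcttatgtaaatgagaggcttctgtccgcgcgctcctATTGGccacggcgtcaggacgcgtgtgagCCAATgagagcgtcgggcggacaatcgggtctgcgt
H2bc18 promoter (GRCm38.p6, chr3:96269450-96269749, plus strand): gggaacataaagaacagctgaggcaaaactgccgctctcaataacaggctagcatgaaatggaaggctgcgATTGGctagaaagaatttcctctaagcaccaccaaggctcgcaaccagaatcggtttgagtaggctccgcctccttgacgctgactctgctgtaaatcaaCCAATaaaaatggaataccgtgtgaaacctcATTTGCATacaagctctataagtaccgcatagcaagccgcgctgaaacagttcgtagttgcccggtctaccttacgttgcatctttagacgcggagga
The H1f2 and H1f4 promoters both held AAACACA, first base 112 and 115 bases before the start, followed by CCAAT at 54 and 52 bases before it. The exact letters TATAAA stood 27 bases before the start of H1f4. Near matches to TATAAA, in this or the other runs, were not searched. The H2bc18 promoter held the octamer 48 bases before the start. Among 32544 promoters of the same length, 7.2% held AAACACA, 37.4% CCAAT, 13.6% TATAAA and 1.75% the octamer.

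Among linker histones, H1f2 fell in sanroque CD4 cells. It encodes an H1 subtype made in most somatic cells. Of its 3 probe sets 2 fell and the third did not pass the test. No other linker gene reached the filter. Of all probe sets tested, 1.06% passed in either direction, 0.390% as lower and 0.670% as higher in sanroque. An unadjusted p under 0.05 was reached by 1343 of the 13579, the share to set beside each such count here and below. With 2 of 15 histone probe sets lower and none higher by limma (3 of 15 had an unadjusted p under 0.05), both calls belong to H1f2 and share its mRNA.

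The H1f2 probe set 1416101_a_at read 65.8 and 65.5 in sanroque arrays 1 and 2, against 175.3 and 208 in wild type arrays 1 and 2. The genotypes did not overlap, and the sanroque arrays were nearly equal to each other. The mean signal was 65.7 ± 0.212 in sanroque and 192 ± 23.1 in wild type (SD, n = 2 each). The log2 fold change was -1.46 (standard error 0.20, limma adjusted p = 0.00498). It was -1.34 on day 1 and -1.58 on day 2. Ordered by log2 fold change from the lowest, it stood at rank 31 of the 13579 probe sets. In these bulk samples, fewer cells of a type that makes the mRNA and less mRNA per cell cannot be told apart. Whether the signal stood for all H1f2 mRNA, with and without a poly(A) tail, was not tested.

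The H1f2 probe set 1436994_a_at read 31.8 and 13.6 in sanroque arrays 1 and 2, against 100 and 74.7 in wild type. Both sanroque arrays were again below both wild type arrays. Its log2 fold change was -1.76 (standard error 0.35, limma adjusted p = 0.0434), -1.49 on day 1 and -2.04 on day 2. Without sanroque array 2 it was -1.29 (adjusted p = 0.0899), and without wild type array 1 it was -1.57 (adjusted p = 0.0807). The probe set 1438204_at read 39.5 and 20.1 in sanroque, against 46 and 22.9 in wild type. Here the genotypes overlapped and the days stood further apart than the genotypes, with a log2 fold change of -0.17 and a 95% confidence interval of -1.11 to 0.77 (limma adjusted p = 0.958). The probe sets of H1f2 differed in the size of the change, with intervals of -1.90 to -1.02, -2.54 to -0.99 and -1.11 to 0.77. The difference between them was not tested.

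**Figure D1:**
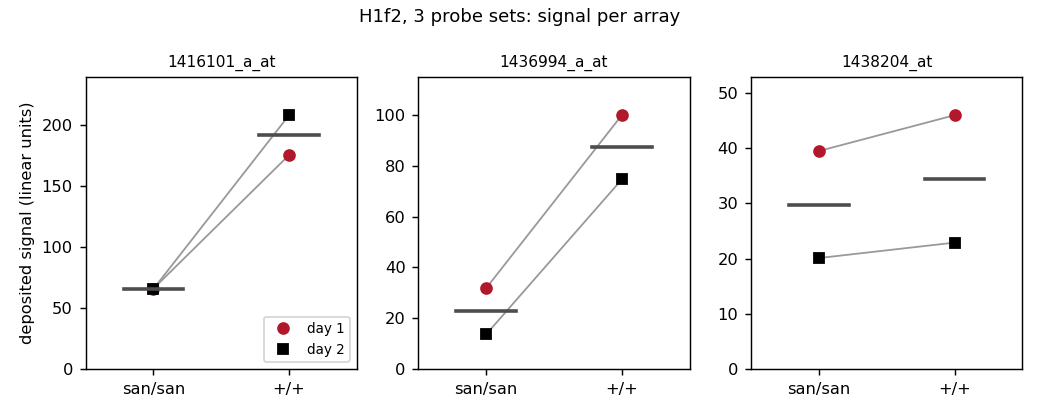
Deposited signal (linear units, axis from 0) of the 3 H1f2 probe sets in each array, sanroque (san/san) left and wild type (+/+) right; grey lines join arrays of the same hybridisation day and horizontal bars are genotype means. The first 2 probe sets are lower in both sanroque arrays, at 65.5 to 65.8 against 175.3 to 208 and at 13.6 to 31.8 against 74.7 to 100, while the third overlaps between genotypes.

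The other linker genes were H1f10, H1f6 (a testis H1), H1f4 and H1f8 (an oocyte H1), each with 1 probe set below the filter. H1f10 had the highest mean of them, with signals of 7.2 and 26.1 in sanroque and 25.5 and 19.9 in wild type. H1f6 read 3.5 and 23.3 in sanroque, against 4.5 and 13 in wild type. H1f4 read 2.6 and 6.8 in sanroque, against 1.9 and 11.1 in wild type. H1f8 read 1.5 and 13.1 in sanroque, against 1.5 and 2.4 in wild type. The genotypes overlapped for each of these 4 genes, and none had a limma adjusted p below 0.835 without the filter. The array therefore gave a usable level for H1f2 alone, and the linker median of -1.46 is a median over its 3 probe sets. With the 4 dim probe sets counted in, the linker median was -0.17, against a median of 0.01 over all probe sets tested.

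**Figure D2:**
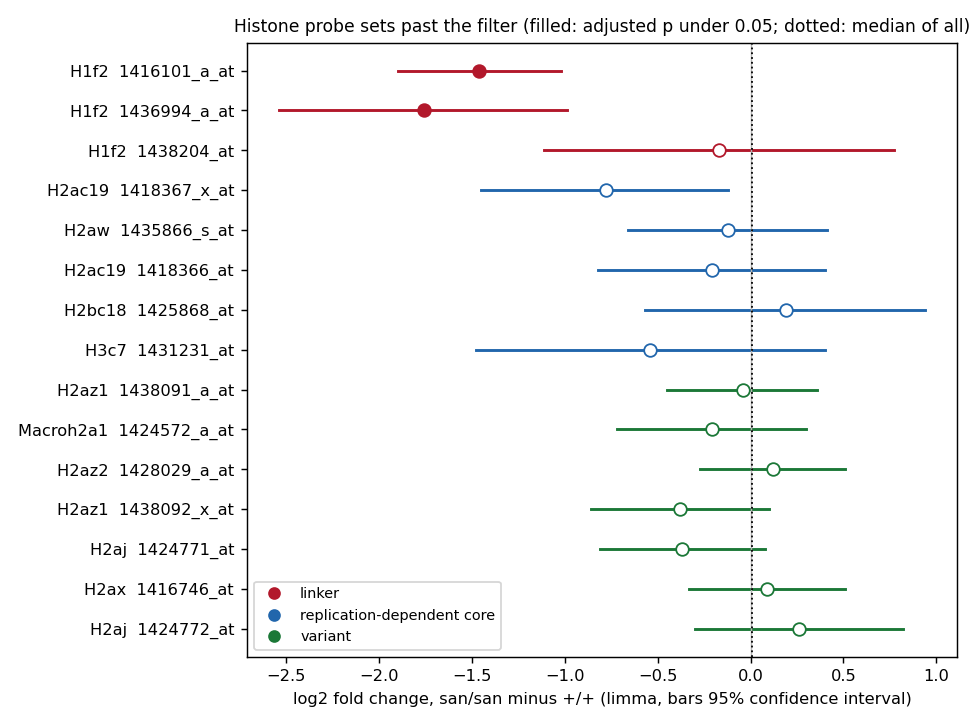
Log2 fold change, sanroque minus wild type, of the 15 histone probe sets past the filter (horizontal axis), with 95% confidence intervals from limma as bars; filled points have an adjusted p under 0.05 and the dotted line is the median of all probe sets, 0.01. The 2 filled points are H1f2 at -1.46 and -1.76, and the other 13 lie between -0.78 and 0.26.

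Replication-dependent core histones did not pass the limma test in either direction (0 of 5 probe sets; 1 of 5 at an unadjusted p under 0.05), and H2ac19 was the member with the largest change. H2ac19 encodes a canonical H2A and has a near-identical neighbour, H2ac18, so its probe sets may read both genes. Its probe set 1418367_x_at, a type in which some probes also match other sequences, read 56.5 and 86.4 in sanroque and 90.5 and 171 in wild type. Each sanroque array was below each wild type array, and arrays of day 2 were above those of day 1 in both genotypes. The log2 fold change was -0.78 (standard error 0.30, limma adjusted p = 0.401), -0.63 on day 1 and -0.94 on day 2. With the hybridisation day as a block it fell (adjusted p = 0.00699), in a fit that called 2.68% of all probe sets lower and 3.59% higher. That fit called 3 of the 15 histone probe sets lower, this one and both of H1f2, whose adjusted p were 8.29e-07 and 1.00e-05. With genotype and day both fitted to 4 arrays, each probe set keeps little spread of its own. All p-values with the block, here and below, therefore rest mostly on the spread pooled over probe sets of similar signal. The other H2ac19 probe set, 1418366_at, read 52.7 and 51.5 in sanroque, against 48.2 and 77.7 in wild type. Its genotypes overlapped, with a log2 fold change of -0.21 (limma adjusted p = 0.893).

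H3c7 encodes a canonical H3. Its probe set read 23.5 and 14 in sanroque, against 29.8 and 28.8 in wild type. The genotypes did not overlap, but the log2 fold change of -0.54 had a 95% confidence interval of -1.48 to 0.40 (limma adjusted p = 0.777). H2aw, an H2A gene of the smallest of the histone clusters, read 66.7 and 74.1 in sanroque and 64 and 92.4 in wild type (log2 fold change -0.12, limma adjusted p = 0.942). H2bc18, a canonical H2B, read 61.5 and 31.1 in sanroque, against 40.1 and 36 in wild type (log2 fold change 0.19, limma adjusted p = 0.935). Both wild type arrays of H2bc18 lay between its sanroque arrays. The other 2 core genes were below the filter. H2bc22 read 13 and 27.9 in sanroque, against 10.1 and 21.2 in wild type, and H3c4 read 1.7 and 4.1 in sanroque, against 8.3 and 1.9 in wild type. The core median was -0.21, with 0.05 on day 1 and -0.54 on day 2, and it was 0.10 without wild type array 2, so its sign rested on that array.

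None of the 7 variant histone probe sets past the filter passed limma, with or without the day as a block (0 of 7 also at an unadjusted p under 0.05). Their log2 fold changes ran from -0.38 to 0.26 with a median of -0.04. H2az1 encodes H2A.Z, the variant that marks nucleosomes at promoters. Its probe set 1438091_a_at read 876.4 and 739.1 in sanroque, against 753.7 and 912.1 in wild type, and the days pointed in opposite directions. The 95% confidence interval of the log2 fold change was -0.45 to 0.36 (limma adjusted p = 0.977). The H2az1 probe set 1438092_x_at read 346.1 and 269 in sanroque, against 478.9 and 331.5 in wild type. It was lower in sanroque on both days, by -0.46 and -0.30, with overlapping genotypes (limma adjusted p = 0.64). Probe sets annotated to both H2az1 and Gm8203, kept apart, went opposite ways. Their log2 fold changes were 0.18 for the brighter and -0.29 for the other (limma adjusted p = 0.853 and 0.82). H2az2, the second H2A.Z gene, read 386.5 and 445.3 in sanroque and 357.5 and 408.3 in wild type, a log2 fold change of 0.12 with an interval of -0.27 to 0.51.

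Macroh2a1 encodes a histone with a large extra domain, found on silent chromatin. It read 479.8 and 542.1 in sanroque, against 456.7 and 759.9 in wild type, a log2 fold change of -0.21 (interval -0.72 to 0.30). Wild type array 2 stood above the other arrays, and without it the value was 0.16. H2ax, whose protein is phosphorylated at DNA breaks, read 148.6 and 176.5 in sanroque and 159.7 and 143.7 in wild type. Its log2 fold change was 0.09, with an interval of -0.33 to 0.51. H2aj, a variant H2A with polyadenylated mRNA, had probe sets that went opposite ways. Probe set 1424771_at read 265.3 and 337.6 in sanroque, against 336.6 and 445.7 in wild type (log2 fold change -0.37, limma adjusted p = 0.625). Probe set 1424772_at read 64.4 and 57.9 in sanroque, against 56.5 and 44 in wild type (log2 fold change 0.26, limma adjusted p = 0.841). Neither H2aj value passed, and the gene has no settled direction here.

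**Figure D3:**
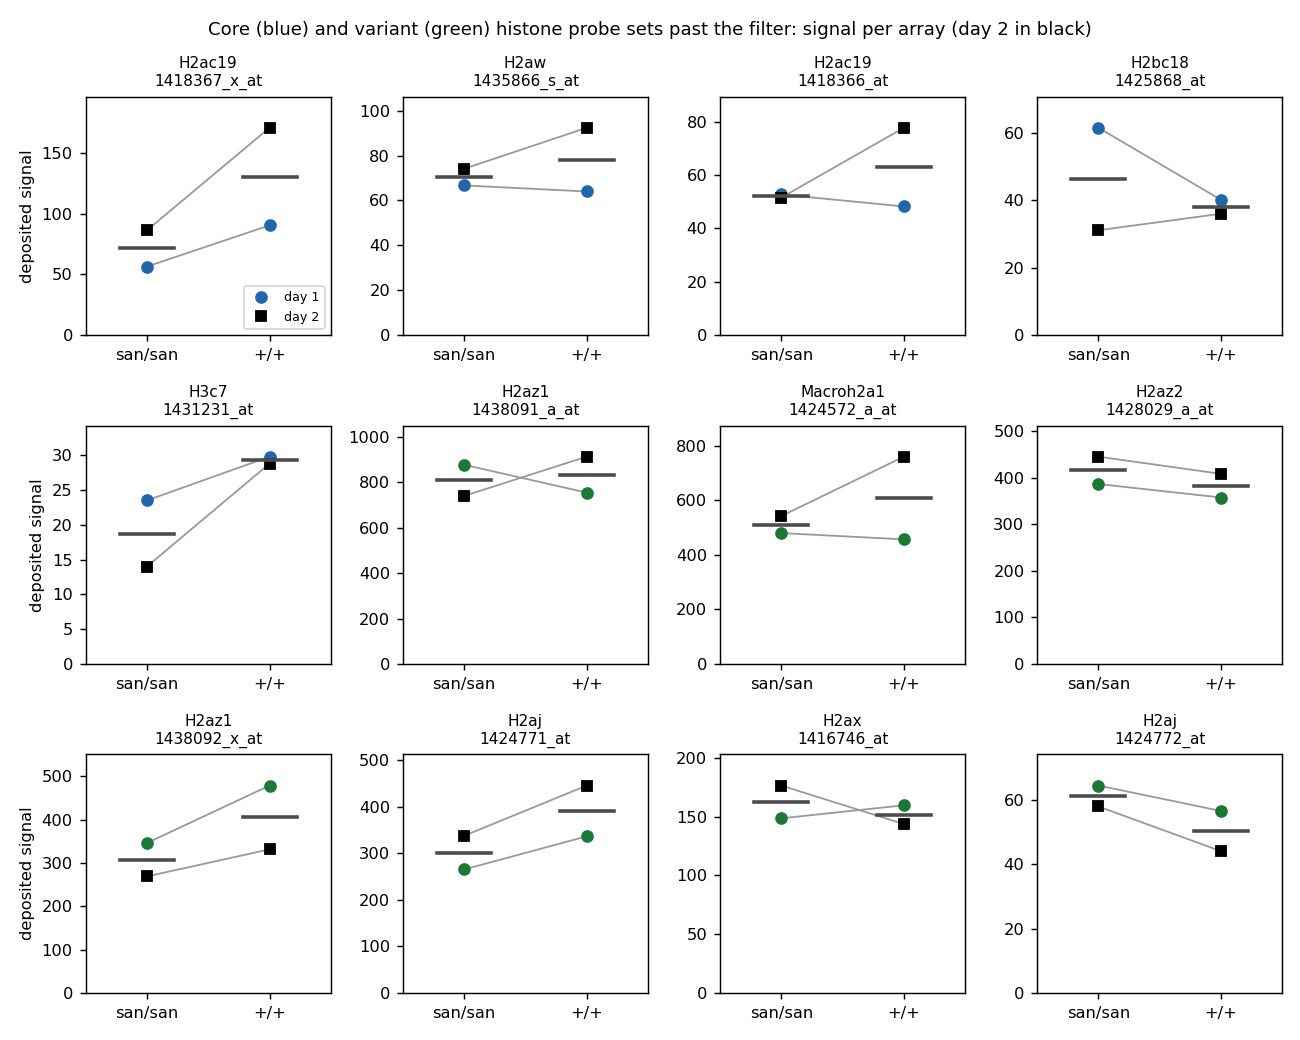
Deposited signal (linear units, each axis from 0) of the 12 core and variant histone probe sets past the filter, sanroque (san/san) left and wild type (+/+) right; lines join arrays of the same day and bars are genotype means. H2ac19 (1418367_x_at) and H3c7 are lower in both sanroque arrays and H2aj (1424772_at) is higher, and the other 9 overlap.

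The other variant probe sets were dim. The remaining H2aj probe set, Macroh2a2, the transcribed pseudogene Macroh2a3 with 2 probe sets, and H2al2a (a testis H2A) stayed below the filter. Macroh2a2 read 6.8 and 3.7 in sanroque, against 8.1 and 15.4 in wild type. The Macroh2a3 probe set 1421613_at read 16.2 and 15.2 in sanroque, against 10.6 and 5.7 in wild type. In all, 11 histone probe sets lay below the filter, with signals of 0.7 to 27.9. Fitted without the filter, the lowest adjusted p among them was 0.783.

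Counted by overlap alone, 4 of the 15 histone probe sets had both sanroque arrays below both wild type arrays, against 17.7% of all probe sets tested, and 1 had both above, against 21.0%. The 4 lower ones were 2 of H1f2, 1 of H2ac19 and H3c7. H3c7 passed the filter only through the wild type arrays, with a mean of 18.8 in sanroque and 29.3 in wild type, so its place among them carries no weight. Within days, 9 of the 15 had the same sign on both, against 8401 of the 13579 probe sets tested, so the histone count lay near that of all probe sets. All 3 H1f2 probe sets were among these 9, with 2 of 5 core and 4 of 7 variant probe sets.

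**Figure D4:**
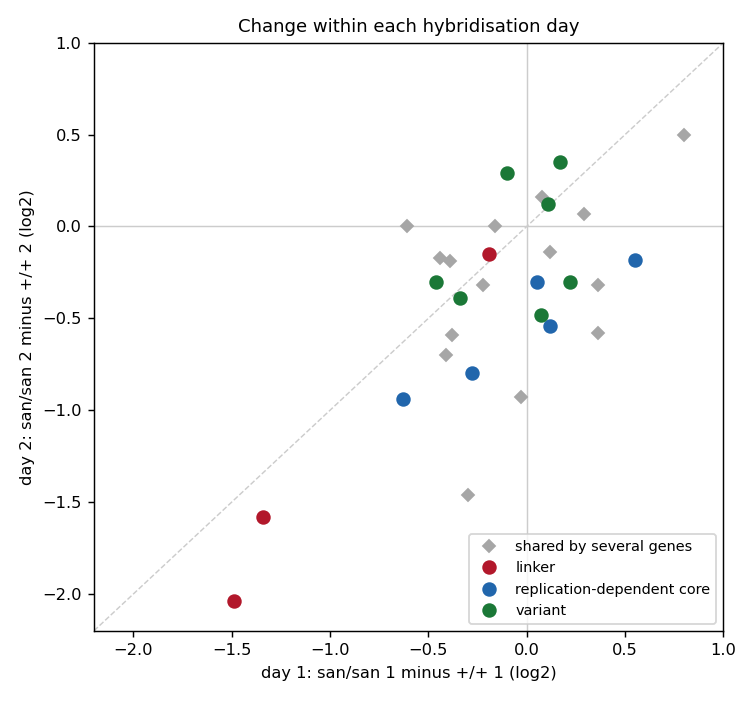
Log2 change within day 1 (horizontal axis, sanroque 1 minus wild type 1) against the change within day 2 (vertical axis, sanroque 2 minus wild type 2) for the 15 single-gene histone probe sets, coloured by class, and 15 probe sets shared by several genes in grey. H1f2 has the 2 points farthest toward the lower left, at -1.34 and -1.58 and at -1.49 and -2.04, and most other points lie within 1 of zero on both axes.

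Probe sets annotated to several genes, at least 1 of them a histone gene, gave 15 further values past the filter. Of these, 3 were shared by 1 histone gene and a gene or pseudogene with no histone symbol. Of the 15, none passed limma (4 of 15 had an unadjusted p under 0.05, against 1343 of the 13579 probe sets tested). With the day as a block 4 passed, in a fit that called 2.68% of all probe sets lower and 3.59% higher. H3.3 genes encode the replacement H3 and shared 5 probe sets, all annotated to the same 6 genes, 3 of them with a histone symbol. Of these repeat readings of the same genes, 4 were lower in both sanroque arrays, against 17.7% of all probe sets tested. With the block 2 fell. Probe set 1455725_a_at read 1579.8 and 1677.7 in sanroque, against 2108 and 2730.9 in wild type (log2 fold change -0.56, adjusted p = 0.326, and 0.0109 with the block). Probe set 1420376_a_at read 474.8 and 391.2 in sanroque, against 620.9 and 593.4 in wild type (log2 fold change -0.49, limma adjusted p = 0.361, and 0.0377 with the block). The H3.3 probe set 1434127_a_at read 2087.3 and 1975.5 in sanroque and 1922.3 and 2181.6 in wild type, a log2 fold change of -0.01, so H3.3 too had probe sets that differed in size of change. Among replication-dependent genes, a probe set shared by 10 H2A genes rose with the block. It read 553.2 and 754.2 in sanroque, against 314.9 and 532.8 in wild type (log2 fold change 0.65, limma adjusted p = 0.402, and 0.00428 with the block). A probe set shared by 12 H3 genes fell with the block, with 68.4 and 22.1 in sanroque and 85.6 and 71.3 in wild type (log2 fold change -0.88, limma adjusted p = 0.492, and 0.0229 with the block). The probe set shared by 13 H4 genes that passed the filter read 136.5 and 137.4 in sanroque, against 139.9 and 267.5 in wild type (log2 fold change -0.48, limma adjusted p = 0.624). These canonical core histone probe sets did not share a direction.

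Of 26 measured genes for histone chaperones and nucleosome assembly, none passed limma (0 at an unadjusted p under 0.05, 0 with the block), with a median log2 fold change of 0.04. Of 21 genes for histone mRNA transcription and 3′ end processing none passed (1 at an unadjusted p under 0.05), with a median of 0.02. Among all probe sets tested, limma called 1.06%, and 1343 of the 13579 had an unadjusted p under 0.05. The fit with the block called 2.68% lower and 3.59% higher. At the limma share, lists of 26 and 21 genes would hold few calls if any. The lack of calls therefore does not show that these genes were unchanged. Slbp, which binds the histone mRNA stem-loop and was picked for that role after its values were seen, read 312.3 and 369.7 in sanroque and 333.2 and 339.1 in wild type. Snrpd3, a snRNP protein of that second list, fell with the day as a block (adjusted p = 9.53e-06). It read 325.5 and 475.3 in sanroque, against 669.3 and 957.1 in wild type (log2 fold change -1.01, limma adjusted p = 0.0782).

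Some cell cycle genes rose in sanroque CD4 cells, in lists chosen with earlier results of these data known. Of all probe sets tested, limma called 0.670% higher and 0.390% lower, and 3.59% and 2.68% with the block. Of 23 measured mitosis genes 5 rose and none fell (11 rose with the block), with a median of 0.70. Ccnb2 and Cdk1 rose with the block but passed the filter only through the sanroque arrays, with wild type means of 12.5 and 8.05. The uncalled Kif11 did so too (14.1), and the part of these genes in that count and median carries no weight. Mki67, a marker of dividing cells, read 113.9 and 123.7 in sanroque, against 24.6 and 39.8 in wild type. Nusap1 and Ube2c rose by 1.43 and 1.16 on the log2 scale. Of 35 DNA replication genes 2 rose and none fell, with a median of 0.06. In that list the uncalled Tk1 and Pola1 passed the filter only through sanroque, with wild type means of 14.9 and 21. Rrm2, a subunit of the enzyme that makes deoxyribonucleotides, read 107.8 and 94.8 in sanroque, against 38 and 26.8 in wild type. Top2a, a topoisomerase, rose by 1.40 on the log2 scale. Whether the histone classes differ from these lists was not tested.

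Genes of other lists also differed between the genotypes. These lists too were chosen with earlier results known, and the shares of all probe sets called were 0.390% lower and 0.670% higher. With the block the shares were 2.68% and 3.59%, and 1343 of the 13579 probe sets had an unadjusted p under 0.05. Of 31 measured immediate early and stress genes 14 fell and 1 rose (22 and 1 with the block), with Fos at 81 and 99.7 in sanroque and 2393.2 and 2968 in wild type. Klf4, among those that fell, had a sanroque mean of 21.1, just under the filter, and passed through wild type (93.8). The log2 fold changes of Jun and Hspa1a were -4.58 and -3.42. The signals of that list, 1 probe set a gene, summed to 13040 and 13830 in sanroque, against 25570 and 29100 in wild type. Of 21 measured myeloid markers 5 rose (9 with the block), led by Ngp (2.20), Lyz1 (1.71) and Lyz2 (1.61). Camp and Lcn2, both among the block calls, passed the filter only through the sanroque arrays, with wild type means of 10.8 and 8.45. So did the uncalled Mmp9 (14.4), and the place of these genes in the counts carries no weight. The myeloid signals summed to 6647 and 6837 in sanroque, against 3357 and 3739 in wild type, and no myeloid marker was at 0 on any array. Their part in the H1f2 result was not tested. Of 10 markers of CD8 T or NK cells 1 rose, Gzmk (1.32; 2 with the block). Of 10 B cell markers none passed (1 fell with the block; 1 at an unadjusted p under 0.05), and their signals summed to 1771 and 1906 in sanroque and 1774 and 1868 in wild type. Of 7 red cell or platelet markers none passed (3 rose with the block; 3 at an unadjusted p under 0.05), nor did any of 6 plasma cell markers (0 with the block; 1 at an unadjusted p under 0.05). Cd4 read 585.9 and 570.2 in sanroque, against 533.3 and 613.5 in wild type, and none of the 5 measured CD4 T cell markers passed (0 at an unadjusted p under 0.05).

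**Figure D5:**
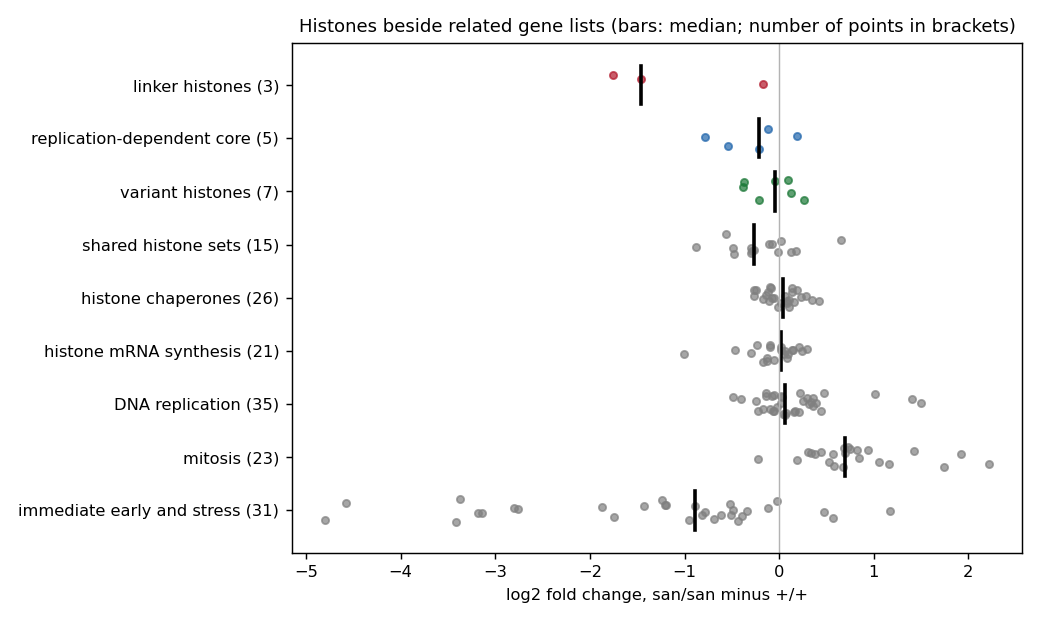
Log2 fold change, sanroque minus wild type (horizontal axis), of each histone probe set past the filter by class, of 15 histone probe sets shared by several genes, and of the genes of 5 related lists; black bars are medians and points are spread vertically for visibility. The linker median is -1.46, the core and variant medians are -0.21 and -0.04, the mitosis median is 0.70 and the immediate early and stress median is -0.89.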

How the data were processed

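RNA of CD4 cells was measured on 4 arrays, of type MOE430A per the file headers. The deposited intensity values are linear, 1 per probe set and array, with trimmed means of 99.59 to 99.97, so the authors had scaled the arrays before deposit. How they summarised probes or corrected background is not given in the sources used here. Files of another kind give chip, wash, day and the scanner notes named above (unit other, per the file headers). A wash protocol was recorded for the arrays of day 1 only.

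Members were matched by symbol or RefSeq synonym (assembly GRCm38.p6), after the platform annotation, and sorted by hand rules into linker, replication-dependent core and variant histones; promoters matched 16 of 19 genes. The members and lists were chosen with earlier results of these data known. Signals were analysed as log2(signal + 6), with probe sets under the 40th percentile of the mean (21.3) and 64 controls left out. Genotypes were compared with limma 3.58.1 (lmFit, eBayes with a variance trend; R 4.3.3), two-sided, over 13579 probe sets, with no covariate. Replicate numbers pair the arrays by hybridisation day, per the file headers; deviations from the genotype mean correlated at 0.392 between same-numbered arrays, from 2 pairs. Lists used each gene's brightest probe set. Values are given for members past the test with or without the block, the 4 brightest of each class and all probe sets of those genes, and for up to 3 called genes of each list. Alternatives were pseudocounts of 1 and 24, no filter or the 60th percentile, quantile normalization, median centring, no variance trend, leaving out each array, 1 probe set per gene, blocking on day or on title wording, and treat (limma) at 1.2-fold. The fits were tested on simulated data. Plots used matplotlib 3.10.9 (Python 3.11.15). The number of arrays limits precision.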

Additional observations from a re-analysis of the deposited data

How the results depend on the processing

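The H1f2 probe set 1416101_a_at stayed past the test under every alternative except no variance trend (log2 fold change -1.46, adjusted p = 0.0651). The H1f2 probe set 1436994_a_at did not pass without the filter (adjusted p = 0.229), without the trend (0.196) or by treat (0.093), and was itself removed by the filter at the 60th percentile. The count of histone probe sets called, 2, was 1 at the 60th percentile, without the filter, by treat or with each gene counted once, 0 without the trend, and 3 with the day as a replicate block, which added H2ac19 and changed no other call among single-gene histone probe sets; among the 15 shared ones it made 4 calls where there had been 0. It ranged from 1 to 2 with each array left out; without wild type array 1, 1436994_a_at lost its call and H2ac19 1418367_x_at gained one (adjusted p = 0.00673). Over all probe sets the count of 144 was 56 without the filter, 47 without the trend, 80 by treat and 852 with the replicate block, and 105 to 356 with each array left out, the highest without wild type array 1. The 28 genes of the related lists past the test became 15 without the filter, 10 without the trend and 52 with the block (20 by treat; 21 to 36 with each array left out).

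The linker median of -1.46 was -0.17 without the filter, where 4 dim probe sets enter, and -1.26 with a pseudocount of 24. With each array left out, the medians ran from -1.57 to -1.29 for linker, from -0.52 to 0.10 for core and from -0.12 to 0.09 for variant histones. Of the uncalled probe sets, H2az1 1438091_a_at turned from -0.04 to 0.03 under quantile normalization. With each array left out the sign turned for H1f2 1438204_at (-0.59 to 0.25), H2ac19 1418366_at (-0.53 to 0.10), H2aw (-0.37 to 0.12), H2ax (-0.03 to 0.21), H2az1 1438091_a_at (-0.18 to 0.09), H2bc18 (-0.25 to 0.62) and Macroh2a1 (-0.57 to 0.16). Apart from the causes named, the cause was not tested.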

Other observations

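Promoter sequences were at hand for 16 of the 19 member genes. AAACACA was found in 3 of 5 linker promoters (H1f2, H1f4 and H1f6), in 0 of 5 core and in 0 of 6 variant promoters, against 7.2% of all promoters. The H1 box is named for H1 genes, so its count in linker promoters is no independent evidence about that class. In H1f6 the first base of AAACACA lay 114 bases before the start. CCAAT was present in 4 of 5 linker, 5 of 5 core and 4 of 6 variant promoters, against 37.4% of all. Of these 3 linker genes H1f2 was past the filter, while H1f4 and H1f6 were not. Measured genes outside the histones were not compared by this match.

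Among shared probe sets below the filter, 1 annotated to 2 H3 genes stood out on a single array. It read 5.3 and 33.2 in sanroque, against 2.5 and 3.2 in wild type, with a log2 fold change of 1.25 without the filter (limma adjusted p = 0.657). A probe set shared by 8 H3 genes read 11.3 and 4.6 in sanroque, against 19.2 and 14.6 in wild type. A probe set shared by 13 H4 genes read 10.4 and 5.1 in sanroque, against 17.1 and 15.6 in wild type. These signals lie near the low end of the table, and none of the 3 passed.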
